A study of Mus musculus with 8 samples.

Results

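Chemokines are small secreted proteins that direct the movement of leukocytes, and their receptors are G-protein-coupled receptors on the cells that follow them. The family was taken as every gene of the count table whose protein-coding symbol in GENCODE M21 was a Ccl, Cxcl, Cx3cl or Xcl ligand, a Ccr, Cxcr, Cx3cr or Xcr receptor, or an Ackr atypical receptor. This gave 66 of the 39179 genes in the table, under 61 symbols, of which 44 were ligands and 22 receptors. Symbols outside that pattern, such as Pf4, Ppbp and Ccrl2, were treated as related genes.

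In intestine, epithelial cells secrete chemokines that draw lymphocytes into the mucosa, among them Ccl25 and Ccl28. Injured epithelium, stroma and myeloid cells make others, such as Cxcl1 and Cxcl2, which call in neutrophils through Cxcr2, and Ccl2, which calls in monocytes through Ccr2. CC and CXC name the spacing of the first cysteines, and the neutrophil-attracting CXC ligands carry a glutamate-leucine-arginine motif before them. Atypical receptors bind chemokines without the usual G-protein signal and remove or present them.

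RNA was sequenced from whole tissue of 8 mouse samples on an inbred C57BL6/J background. All 8 carried VilCreER, a Cre recombinase that tamoxifen activates and that the villin promoter confines to gut epithelium, and all had tamoxifen-induced recombination in vivo. Wild type stands for 3 samples of small intestine from VilCreER+ mice. The 5 adenoma samples were small intestinal adenomas of VilCreER+ APCfl/+ mice, which carry 1 floxed Apc allele, and the series text describes these mice as aged. Neither ages in numbers nor whether samples of a group came from separate mice are stated in the labels. Sex-linked RNA, given below, differed between adenoma 1 and adenomas 2 to 5, so not all adenomas came from the same mouse. Each p-value speaks only for the spread among these samples, which may be technical in part. In whole tissue, fewer cells of a type and less RNA per cell cannot be told apart.

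Library totals ran from 18040301 to 28343915 counts. Several libraries stood apart. Levels are in CPM, read counts scaled to a common library size. Wild type 1 and adenoma 5 held the pancreatic RNA Pnlip at 190.0 and 63.5 CPM, against at most 0.798 CPM in the others. Adenoma 2 held the hindgut gene Hoxb13 at 246 CPM, against at most 0.894 CPM in the others. Xist was at 432 to 761 CPM in adenomas 2 to 5 and at most 1.75 CPM in adenoma 1 and the wild-type libraries. The Y-linked gene Ddx3y showed the reverse, at 70.6 to 77.5 CPM in adenoma 1 and wild type and at most 0.0939 CPM in adenomas 2 to 5. The sex of the tissue therefore nearly coincided with the group, and apart from adenoma 1 the effects of both cannot be told apart. Wild type 1 also held lymphoid follicle RNA: its 5 B cell markers summed to 122 CPM, against 10.1 and 12.3 CPM in the other wild-type libraries and 8.97 to 13.1 CPM in the adenomas. The 10 epithelial markers listed were present in all libraries, at summed levels of 6051 to 6833 CPM in wild type and 5782 to 10003 CPM in adenoma. Of these, 7 were called higher in adenoma, 1 lower (Vil1) and 2 not called. The pan-epithelial scaling used below sizes libraries by the summed counts of these same 10 genes, so it moves with changes in them. Of mast cell markers 4 of 5 were higher (Fcer1a passed the filter on low counts only through the adenomas and had to be), with sums of 13.7 to 19.1 and 50.6 to 149 CPM, and of blood endothelial markers 3 of 4, with sums of 112 to 128 and 116 to 202 CPM. Of smooth muscle markers 2 of 4 were lower, with sums of 748 to 1356 and 315 to 760.3 CPM.

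Of the 66 members, 50 passed the filter on low counts and were tested, 9 had 0 counts in every library and 7 had too few. Among those tested, 23 were called by edgeR's quasi-likelihood test at a Benjamini-Hochberg adjusted p under 0.05 over 18345 genes, 12 of them higher in adenoma and 11 lower. Of all genes tested, 58.1% were called, 30.3% higher and 27.8% lower. The members' share of calls, 23 of 50, lay below that of genes at large. For 20 tested members the groups did not overlap, and this held for 56.9% of all genes tested. Over the members tested the log2 fold change had a median of -0.11, against 0.04 over all genes tested. Without wild type 1 the count of lower members was 5, and without adenoma 4 it was 7. Scaling by pan-epithelial genes gave 9 higher and 14 lower. The Xist pattern, that is sex, as a covariate, which leaves adenoma 1 to stand against wild type, gave 7 higher (Cxcl1, Cxcl2, Cxcl3, Cxcl5, Cxcl17, Cxcr2 and Ackr3) and 3 lower (Ccl5, Xcl1 and Cxcl12, the last not called otherwise). Below, levels follow the order wild type 1 to 3 and adenoma 1 to 5, and brackets hold the log2 fold change of adenoma over wild type ± its SE, where given, and its adjusted p. Of the 11 CXC ligands tested, 6 were higher and 0 lower. Of the 18 CC ligands tested, 3 were higher and 3 lower, and of the 15 typical receptors tested, 1 was higher and 5 lower. Among the members counted as higher, Cxcl2, Cxcl3, Cxcl17 and the 1 receptor, Cxcr2, passed the filter only through the adenomas and had to be higher. Xcl1 passed only through wild type and had to be lower.

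**Figure D1:**
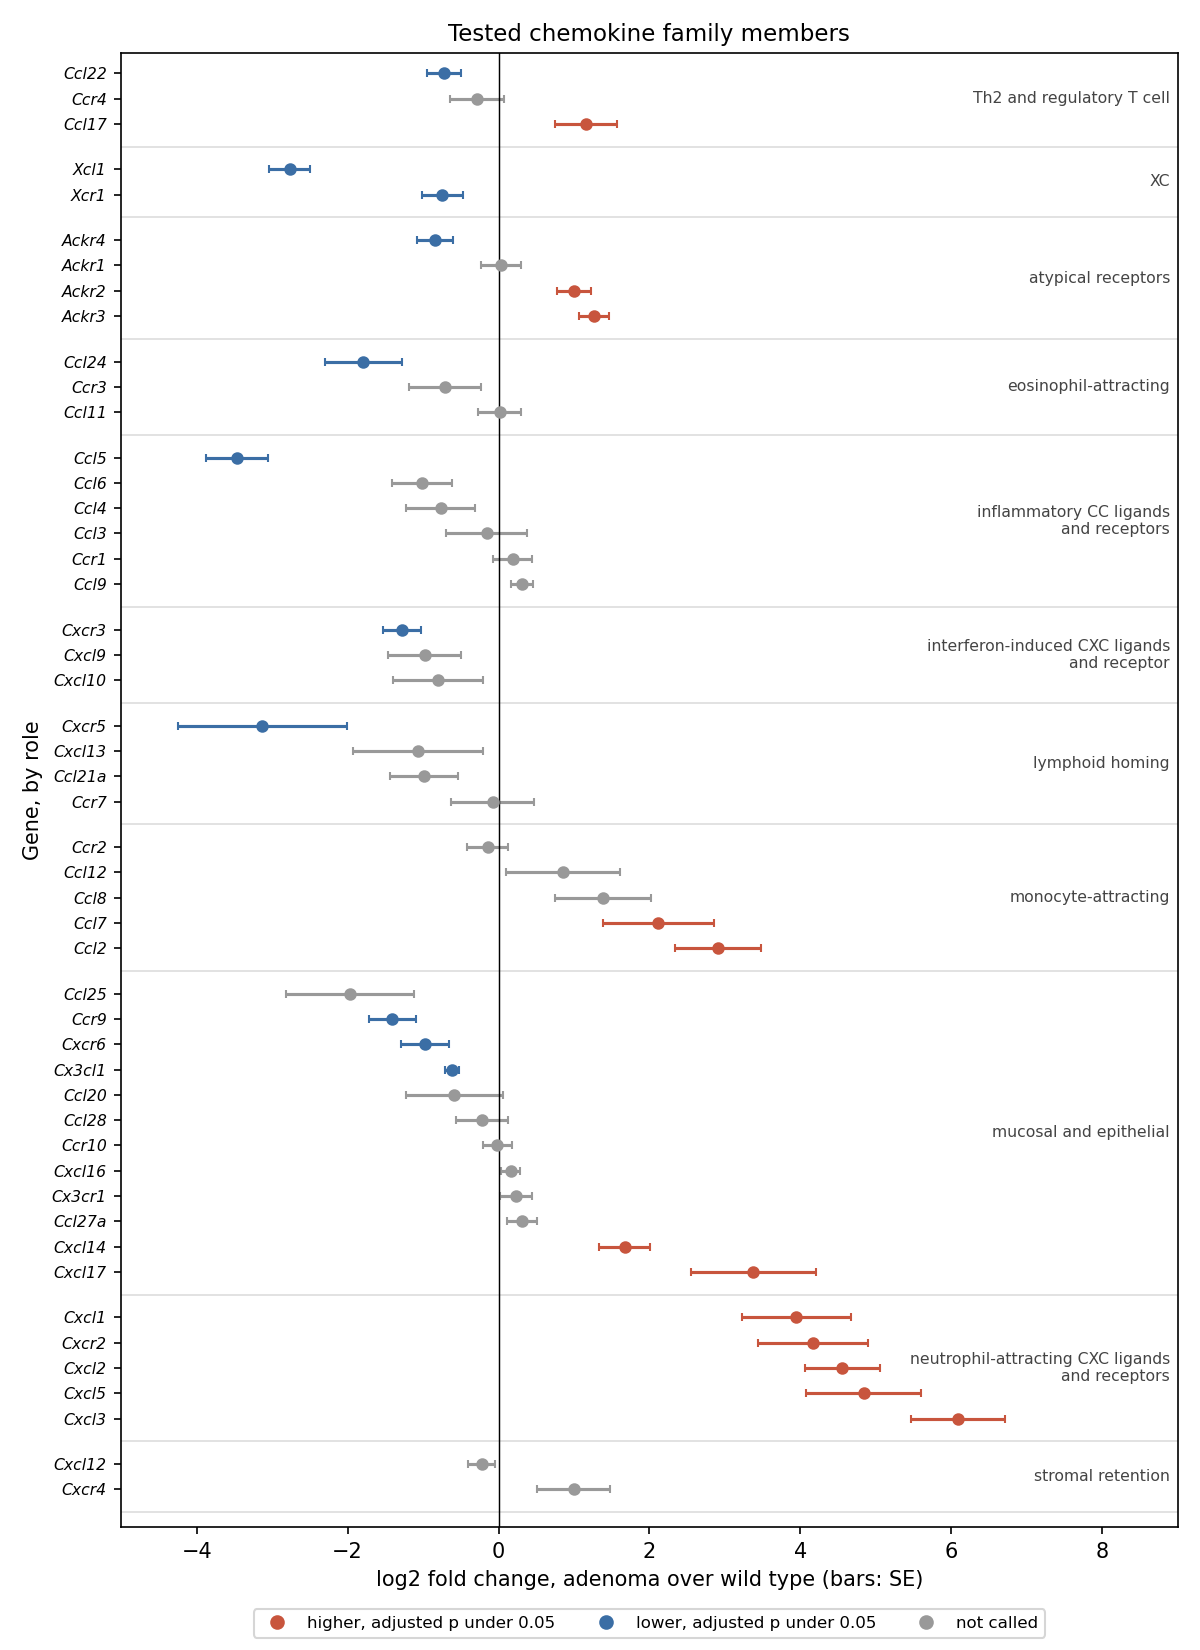
Log2 fold change of adenoma over wild type for 49 of the 50 tested members, grouped by role, with bars for the SE and colour for the call. The neutrophil-attracting members sit farthest to the right, from 3.95 to 6.09, and Ccl5 at -3.47 farthest to the left.

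The promoters of 3 of the ligands that changed most are shown because they share a stretch of letters and lie close together on chromosome 5. Each line gives the 120 bases before the gene's annotated start, 5′ to 3′, from RefSeq on GRCm38.p6. Capitals mark matches to the NF-kB consensus motif, searched on both strands.
Cxcl3 (chr5:90785981-90786100, plus strand): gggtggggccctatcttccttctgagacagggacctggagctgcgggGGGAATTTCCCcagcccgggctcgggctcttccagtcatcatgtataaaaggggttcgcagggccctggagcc
Cxcl1 (chr5:90891125-90891244, plus strand): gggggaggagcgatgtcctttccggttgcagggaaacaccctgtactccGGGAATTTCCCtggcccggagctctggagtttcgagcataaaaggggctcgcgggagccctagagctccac
Cxcl2 (chr5:90903779-90903898, plus strand): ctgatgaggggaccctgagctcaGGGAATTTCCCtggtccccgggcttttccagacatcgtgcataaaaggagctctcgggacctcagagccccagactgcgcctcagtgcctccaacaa
All 3 windows held the same run, GGGAATTTCCC, which matches the motif on each strand in overlapping positions. Counted from the RefSeq starts, the run begins 73 bases before Cxcl3, 71 before Cxcl1 and 97 before Cxcl2. GENCODE M21 instead starts Cxcl1 at 90891241 and Cxcl2 at 90903871, inside the windows shown. The distances in this paragraph therefore hold for the RefSeq starts only. TATAAA was found for Cxcl3 and not for Cxcl1 or Cxcl2. All 3 windows held ATAAAA, beginning at -29 for Cxcl3, -34 for Cxcl1 and -57 for Cxcl2, counted from the start. Of 32851 promoter windows in the table, searched over the 250 bases before the start, 3.90% held the NF-kB motif and 12.4% held TATAAA on either strand. The table matched 45 of the 61 symbols. A symbol was counted if any of its windows held the motif, so counts by symbol are not on the scale of the shares of single windows. The motif was found for 4 of the 8 matched members called higher (Ackr2, Cxcl1, Cxcl2 and Cxcl3), for 0 of the 8 called lower and for 4 of the 21 tested but not called (Ccl20, Ccl9, Ccr3 and Cxcl10). Cxcl5 and Ccl2 had no entry.

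Cxcl1, Cxcl2, Cxcl3 and Cxcl5, ligands that attract neutrophils, and their receptor Cxcr2 were low in wild-type intestine and higher in every adenoma. Of the 7 genes listed for this role, 5 were tested and all 5 were called higher, and for each the groups did not overlap. For Cxcl2, Cxcl3 and Cxcr2, no wild-type library reached the filter's minimum of 0.478 CPM, so these passed only through the adenomas and had to be higher.

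Cxcl5 is made mainly by epithelium. It stood at 0.662, 1.23 and 0.982 CPM in wild type 1 to 3 and at 24.3, 52.5, 7.60, 14.6 and 38.1 CPM in adenomas 1 to 5. Adenomas 2 and 5 were highest and adenoma 3 lowest, yet adenoma 3 lay above every wild-type library. On the log2 scale the fold change was 4.84 ± 0.77 (adjusted p = 0.00127). Cxcl5 and the 3 ligands printed above lie together on chromosome 5 (GRCm38), Cxcl5 at 90759360 to 90761624, plus strand.

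Cxcl1, a ligand induced in epithelium and stroma by inflammatory cytokines, was at 0.509, 0.725 and 0.382 CPM in wild type and 3.50, 8.87, 2.64, 10.7 and 16.1 CPM in adenoma. Its log2 fold change was 3.95 ± 0.72 (adjusted p = 0.00205). Adenomas 1 and 3 held the lowest values of the adenomas and adenoma 5 the highest. Cxcl2, made chiefly by myeloid cells, was at 0.255, 0.334 and 0.436 CPM in wild type and 6.99, 12.9, 3.35, 8.21 and 9.38 CPM in adenoma (log2 fold change 4.56 ± 0.50, adjusted p = 1.46e-04). Here adenoma 2 was highest and adenoma 3 again lowest.

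Cxcl3 had 1 count in the wild-type group, in wild type 1, and 188 in the adenomas. The ratio of summed counts, scaled to library size, was 89.2, with an exact 95% interval of 15.8 to 3542.7 for counting error only. Its adenoma values were 2.14, 1.69, 1.03, 1.51 and 1.62 CPM (adjusted p = 1.08e-04). With 1 wild-type count, the fitted log2 value plotted for Cxcl3 depends on the prior count and is no bound. The lowest of these, in adenoma 3, still exceeded the single wild-type value of 0.0509 CPM.

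Cxcr2 (chromosome 1, 74153989 to 74161246, plus strand), the receptor for these ligands and a gene of mature neutrophils, was at 0.204, 0.111 and 0.109 CPM in wild type and 3.22, 4.93, 0.804, 1.51 and 2.84 CPM in adenoma. Its fold change on the log2 scale was 4.17 ± 0.72 (adjusted p = 0.00141). Adenoma 2 was highest and adenoma 3 lowest, the same ends of the range as for Cxcl5 and Cxcl2. The related receptor Cxcr1 had 2 counts in wild type and 6 in adenoma and was not tested, as was the lung ligand Cxcl15, at 0.382 to 0.662 CPM in wild type and 0.0865 to 0.423 CPM in adenoma.

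Most of the neutrophil markers tested moved with these genes. Of 9 listed, 6 were tested and 5 were higher (Ly6g, Mmp8, Retnlg, S100a8 and S100a9). Of these, Ly6g, Mmp8, S100a8 and S100a9 lay under the filter's minimum in every wild-type library and so had to be higher. That minimum applies to CPM by total counts, before the scaling used for the levels given here. Ly6g stood at 10.9 CPM in adenoma 2 and only 0.559 to 0.849 CPM in the other adenomas (adjusted p = 0.0456). All 9 together had summed levels of 4.89 to 6.49 CPM in wild type and 15.8 to 88.6 CPM in adenoma. S100a9, a calcium-binding protein abundant in neutrophils, was at 0.407, 0.167 and 0.109 CPM in wild type and 18.6, 34.1, 3.31, 13.2 and 18.2 CPM in adenoma, and adenoma 3 was again the lowest adenoma and adenoma 2 the highest. Csf3r was not called (adjusted p = 0.151). The granule genes of immature neutrophils Mpo, Ngp and Camp were too low to test and stayed at or below 0.329 CPM in the adenomas. Camp went the other way, at 0.102, 0.446 and 0.218 CPM in wild type and 0 to 0.102 CPM in adenoma. The part of neutrophil number in the levels of Cxcr2 and the ligands was not tested.

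**Figure D2:**
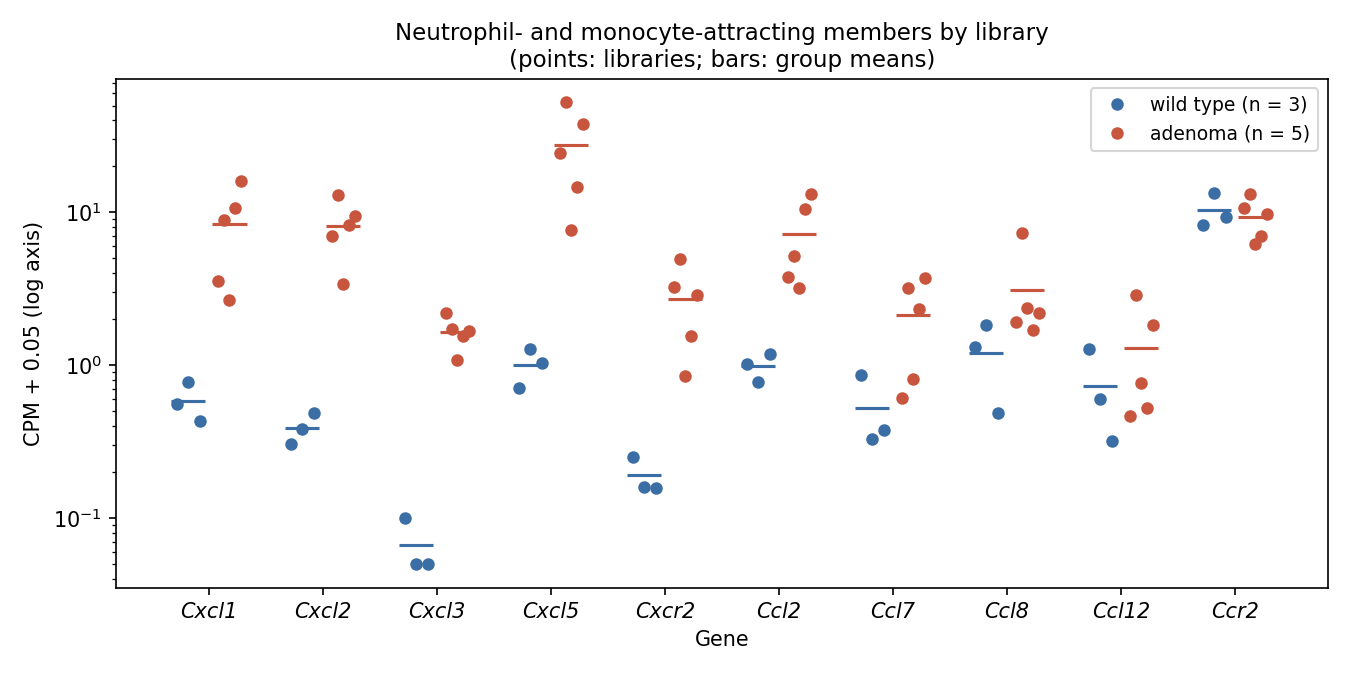
CPM plus 0.05 on a log axis for neutrophil- and monocyte-attracting members, 1 point per library and a bar at each group mean. The groups are separate for Cxcl1, Cxcl2, Cxcl3, Cxcl5, Cxcr2 and Ccl2 and overlap for Ccl7, Ccl8, Ccl12 and Ccr2.

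Of the monocyte-attracting genes, 2 ligands were called higher and the receptor was not. Ccl2 (chromosome 11, 82035571 to 82037453, plus strand), the main ligand of Ccr2, was at 0.968, 0.725 and 1.15 CPM in wild type and 3.73, 5.12, 3.17, 10.5 and 13.1 CPM in adenoma (log2 fold change 2.91 ± 0.57, adjusted p = 0.00279). Adenomas 4 and 5 were highest, as for Cxcl1, and every adenoma lay above every wild-type library. Ccl7, its neighbour on chromosome 11, was at 0.815, 0.279 and 0.327 CPM in wild type and 0.559, 3.15, 0.760, 2.29 and 3.66 CPM in adenoma. Adenomas 1 and 3 fell within the wild-type range, and the call (log2 fold change 2.12 ± 0.74, adjusted p = 0.0355) did not survive the removal of wild type 2, wild type 3 or adenoma 2, 4 or 5, where adjusted p reached 0.114.

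Ccl8 and Ccl12, further ligands of this group, were not called (adjusted p = 0.0911 and 0.356). Adenoma 2 held the highest level of each, 7.32 and 2.82 CPM. Of the alternatives, DESeq2 and the replicate block called Ccl8 higher (adjusted p = 0.0439 and 0.0393). Ccr2, which marks monocytes recently arrived from blood, was at 8.25, 13.4 and 9.22 CPM in wild type and 10.7, 13.1, 6.17, 6.92 and 9.78 CPM in adenoma, with no call (-0.14 ± 0.27, adjusted p = 0.668). Of 9 macrophage and monocyte markers, 1 was higher (Cd14, log2 fold change 2.79), 1 lower (Csf1r, -0.82) and 7 not called, with summed levels of 311 to 331 CPM in wild type and 238 to 487 CPM in adenoma. The top of the second range was adenoma 2.

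Called lower were 5 members linked to cytotoxic and resident lymphocytes or the dendritic cells they call: Ccl5, Xcl1, Xcr1, Cxcr3 and Cxcr6, grouped here from several role lists after their values were seen. Ccl5 (chromosome 11, 83525778 to 83530518, minus strand), made by T cells and natural killer cells, was at 8.30, 9.14 and 10.6 CPM in wild type and 0.932, 0.188, 0.804, 0.908 and 1.32 CPM in adenoma. Every adenoma lay far below every wild-type library, and adenoma 2 was lowest. Its log2 fold change of -3.47 ± 0.41 (adjusted p = 2.04e-04) was the most negative among the members tested. Xcl1, a ligand made by natural killer cells and CD8 T cells, fell from 1.68, 1.56 and 1.36 CPM to 0.326, 0.188, 0.179, 0.173 and 0.237 CPM (log2 fold change -2.77 ± 0.27, adjusted p = 8.66e-05). No adenoma reached the filter's minimum for Xcl1, which passed only through wild type and so had to be lower. Its receptor Xcr1, a marker of cross-presenting dendritic cells, was at 2.34, 1.45 and 2.18 CPM in wild type and 1.63, 0.986, 0.849, 1.17 and 1.29 CPM in adenoma (-0.75 ± 0.27, adjusted p = 0.0407). The Xcr1 groups overlapped, and its call was lost on leaving out wild type 1, wild type 3 or adenoma 3, 4 or 5, where adjusted p reached 0.146.

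Cxcr3, the receptor of effector T cells, fell from 2.19, 1.56 and 1.69 CPM to 0.979, 0.751, 0.581, 0.562 and 0.846 CPM without overlap (-1.28 ± 0.26, adjusted p = 0.00281). Its interferon-induced ligands Cxcl9 and Cxcl10 were not called. Cxcl9 was at 6.16, 13.3 and 12.7 CPM in wild type and 5.41, 4.18, 1.56, 6.79 and 9.07 CPM in adenoma, and wild type 1 lay among the adenomas. Cxcl10 was at 2.04, 2.51 and 3.82 CPM in wild type and 0.792, 2.77, 0.313, 1.38 and 2.67 CPM in adenoma. Their log2 fold changes were -0.98 for Cxcl9 (adjusted p = 0.113) and -0.80 for Cxcl10 (adjusted p = 0.273).

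Cxcr6, a receptor of tissue-resident lymphocytes, fell from 7.94, 7.25 and 6.71 CPM to 3.87, 3.33, 1.88, 3.29 and 6.16 CPM (-0.97 ± 0.32, adjusted p = 0.0266). Adenoma 5 came close to the wild-type range. The call was lost without any 1 of the 3 wild-type libraries or adenoma 4, with an adjusted p of up to 0.0828. Its membrane-bound ligand Cxcl16 was not called, at 32.9, 30.8 and 33.6 CPM in wild type and 37.4, 28.3, 39.8, 41.2 and 34.7 CPM in adenoma (0.16 ± 0.13, adjusted p = 0.300). Without adenoma 2 Cxcl16 was called higher, by 0.23 on the log2 scale (adjusted p = 0.0387, against 0.0387 to 0.713 over all alternatives).

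T cell markers moved the same way as these genes. Of 7 listed, 6 were tested and 5 were lower, with summed levels of 43.2 to 50.7 CPM in wild type and 9.67 to 17.3 CPM in adenoma. Cd8a, the coreceptor of CD8 T cells, fell, with 15.05 to 17.4 CPM in wild type and 0.517 to 2.95 CPM in adenoma. All 5 dendritic cell markers were lower, with sums of 58.8 to 63.4 and 24.8 to 32.0 CPM, and so were 3 of 5 pan-leukocyte genes, with sums of 218 to 386 and 112 to 165 CPM. The part of these cells in the fall of Ccl5, Xcl1, Xcr1, Cxcr3 and Cxcr6 was not tested.

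Of the small intestinal homing pair, the receptor Ccr9 passed the test and the ligand Ccl25 did not, although for both every adenoma lay below every wild-type library. Ccl25 is secreted by small intestinal epithelium and draws T cells and plasma cell precursors that carry Ccr9. It lies at chromosome 8, 4325210 to 4360020, plus strand. It was at 286, 223 and 235 CPM in wild type 1 to 3 and 80.1, 1.69, 96.9, 76.5 and 62.2 CPM in adenomas 1 to 5. Adenoma 2, the library with Hoxb13, was far below the other adenomas. Over all 8 libraries the log2 fold change of -1.97 ± 0.85 was not called (adjusted p = 0.0802). Without adenoma 2 it was -1.66, and Ccl25 was called lower (adjusted p = 1.96e-05, against 1.96e-05 to 0.462 over all alternatives). Ccr9 (chromosome 9, 123678439 to 123784330, plus strand) fell from 16.1, 15.3 and 17.5 CPM to 9.83, 2.77, 6.12, 6.27 and 5.65 CPM (-1.41 ± 0.31, adjusted p = 0.00489), again with adenoma 2 lowest.

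Ccl28, the other mucosal homing ligand, did not separate the groups. It was at 31.8, 34.8 and 26.4 CPM in wild type and 18.8, 38.5, 17.5, 16.6 and 41.2 CPM in adenoma (-0.22 ± 0.34, adjusted p = 0.596). Adenomas 2 and 5 lay above wild type and adenomas 1, 3 and 4 below it. Its receptor Ccr10, carried by IgA plasma cells, was at 3.77 to 5.57 and 3.43 to 4.80 CPM (-0.017, adjusted p = 0.943). The skin-type ligand Ccl27a, which also binds Ccr10, was at 1.28 to 1.63 and 1.49 to 2.02 CPM (adjusted p = 0.203).

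Cx3cl1, a membrane-bound ligand of epithelium and endothelium, fell by a small and even step. It was at 75.2, 84.3 and 78.2 CPM in wild type and 59.2, 49.5, 55.2, 48.3 and 46.5 CPM in adenoma (-0.61 ± 0.10, adjusted p = 8.51e-04), and the groups did not overlap. Its receptor Cx3cr1, a gene of resident intestinal macrophages, was not called, at 17.6, 20.4 and 16.5 CPM in wild type and 18.1, 31.6, 16.1, 19.8 and 21.1 CPM in adenoma, where adenoma 2 was the highest (0.23 ± 0.21, adjusted p = 0.368).

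Cxcl14, a ligand of epithelium and fibroblasts with no settled signalling receptor, rose from 14.9, 15.2 and 13.6 CPM to 36.3, 86.2, 34.0, 34.9 and 40.8 CPM (1.67 ± 0.34, adjusted p = 0.00338). The other adenomas lay close together and adenoma 2 stood well above them. Fibroblast markers rose too, with 4 of 5 higher and sums of 529 to 695 CPM in wild type and 1464 to 1870.2 CPM in adenoma, and their part in the level of Cxcl14 was not tested. Cxcl17, a mucosal ligand best known from stomach and airway, was at 0.255, 0.223 and 0.109 CPM in wild type and 3.78, 0.235, 1.92, 2.21 and 2.34 CPM in adenoma (3.38 ± 0.83, adjusted p = 0.00791). It passed the filter only through the adenomas. Adenoma 2 alone lay inside the wild-type range, and limma-voom did not call the gene (adjusted p = 0.0852, against 5.07e-05 to 0.0852 over all alternatives).

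**Figure D3:**
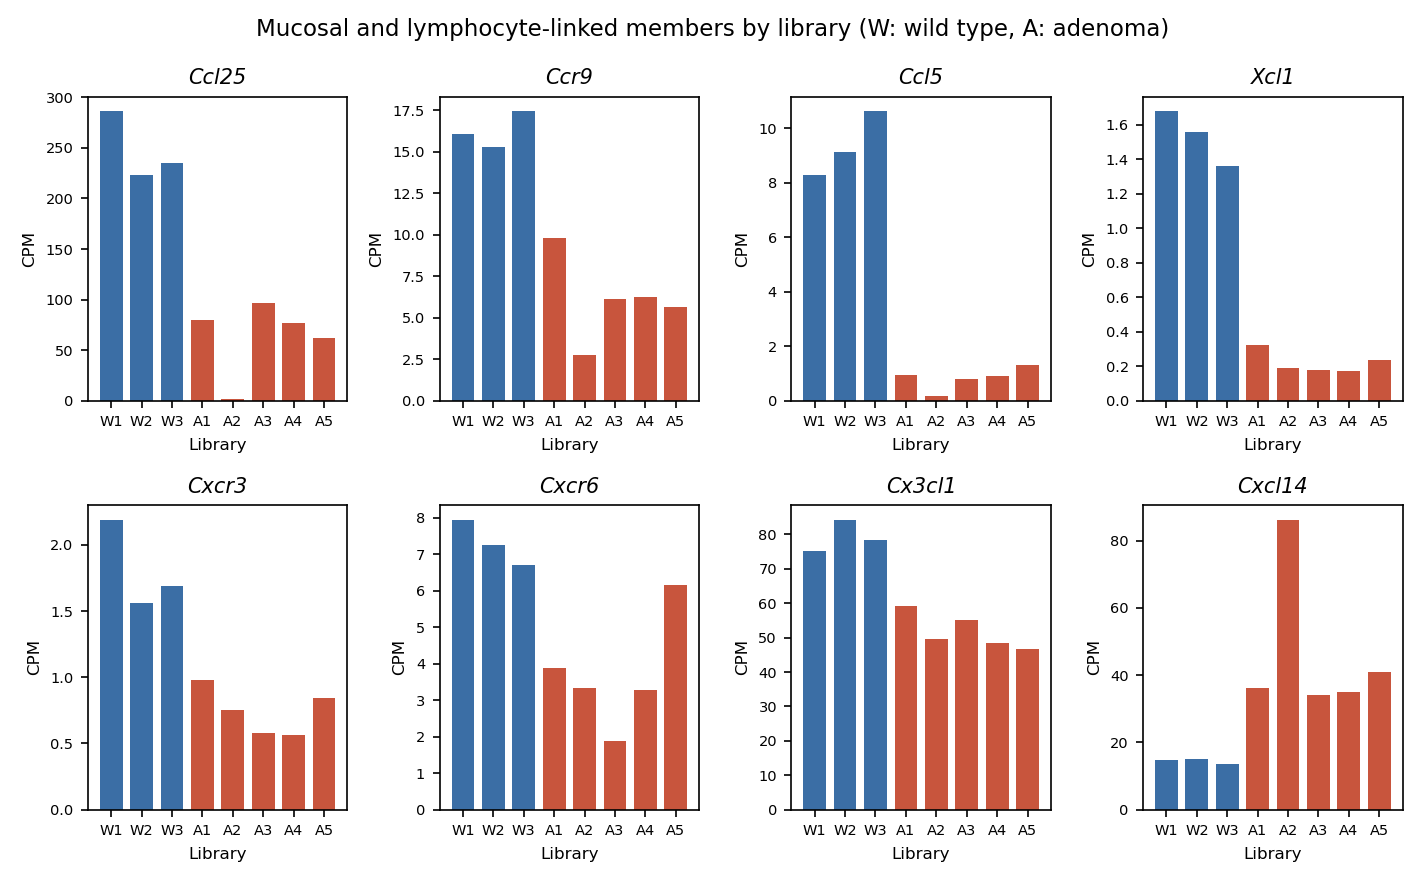
CPM by library on axes that start at 0 for 8 mucosal and lymphocyte-linked members, with 1 bar per library. Ccl25, Ccr9, Ccl5, Xcl1, Cxcr3, Cxcr6 and Cx3cl1 are lower in each adenoma than in each wild-type library, Cxcl14 is higher, and adenoma 2 has the lowest Ccl25, at 1.69 CPM.

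Several genes of lymphoid follicles were high in wild type 1 alone. Cxcr5, which leads B cells into follicles, was at 11.5, 0.557 and 0.327 CPM in wild type and 0.513, 0.986, 0.402, 0.0865 and 0.372 CPM in adenoma. It was called lower (-3.13 ± 1.12, adjusted p = 0.0416) although wild type 2 and 3 lay among the adenomas. Without wild type 1 the log2 fold change was 0.084, and leaving out any adenoma also ended the call, at adjusted p of up to 0.934 over all single libraries left out. Its ligand Cxcl13, made by follicle stroma, was at 9.73, 1.95 and 0.818 CPM in wild type and 0.559, 5.02, 1.61, 1.69 and 1.12 CPM in adenoma (adjusted p = 0.315).

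Ccr7, the receptor that leads T cells and dendritic cells to lymph nodes, was at 3.92, 0.725 and 0.764 CPM in wild type and 2.33, 1.83, 1.61, 1.77 and 1.08 CPM in adenoma, with no call (adjusted p = 0.910). Wild type 1 was above all adenomas, while wild type 2 and 3 were below all of them. Without wild type 1 Ccr7 was called higher, by 1.21 on the log2 scale (adjusted p = 0.0238, against 0.0129 to 0.988 over all alternatives). Its ligand Ccl21a was at 24.8, 7.58 and 7.69 CPM in wild type and 3.96, 9.63, 6.88, 4.67 and 8.56 CPM in adenoma (adjusted p = 0.0934). Reads of Ccl19 and the Ccl21 genes are uncertain, because near-identical copies on chromosome 4 and unplaced scaffolds can share them, and 6 such copies had 0 counts throughout. Ccl19 had 26 counts in wild type 1 and at most 4 in any other library.

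Cxcr4, a receptor for retention in tissue found on leukocytes and other cells, was also low in wild type 2 and 3 only. It was at 11.3, 2.29 and 2.84 CPM in wild type and 9.09, 10.99, 12.1, 10.5 and 12.1 CPM in adenoma and was not called (1.00 ± 0.48, adjusted p = 0.108). Without wild type 1 it was called higher, by 2.10 on the log2 scale (adjusted p = 3.04e-04, against 4.69e-05 to 0.477 over all alternatives). Its stromal ligand Cxcl12 was at 30.7, 29.4 and 32.1 CPM in wild type and 16.9, 30.2, 28.1, 26.5 and 30.1 CPM in adenoma (-0.22 ± 0.18, adjusted p = 0.312), with adenoma 1 the lowest. Ccl20, made by the epithelium over follicles, was at 7.33, 1.06 and 1.53 CPM in wild type and 1.68, 1.93, 1.21, 1.95 and 4.20 CPM in adenoma (adjusted p = 0.455). Its receptor Ccr6 was too low to test, at 3.77 CPM in wild type 1 and at most 0.502 CPM elsewhere.

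The follicle markers Cr2, Fcer2a, Fcrla and Cxcr5, the last of which is a member, summed to 71.7 CPM in wild type 1, 5.07 to 6.97 CPM in the other wild-type libraries and 2.88 to 5.59 CPM in the adenomas. Without wild type 1 the log2 fold changes of Cxcl13 and Ccl20 changed sign, from -1.07 to 0.53 and from -0.59 to 0.77, still without a call. The part of this follicle RNA in the levels of Ccr7, Cxcr4, Cxcl13 and Ccl20 was not tested.

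**Figure D4:**
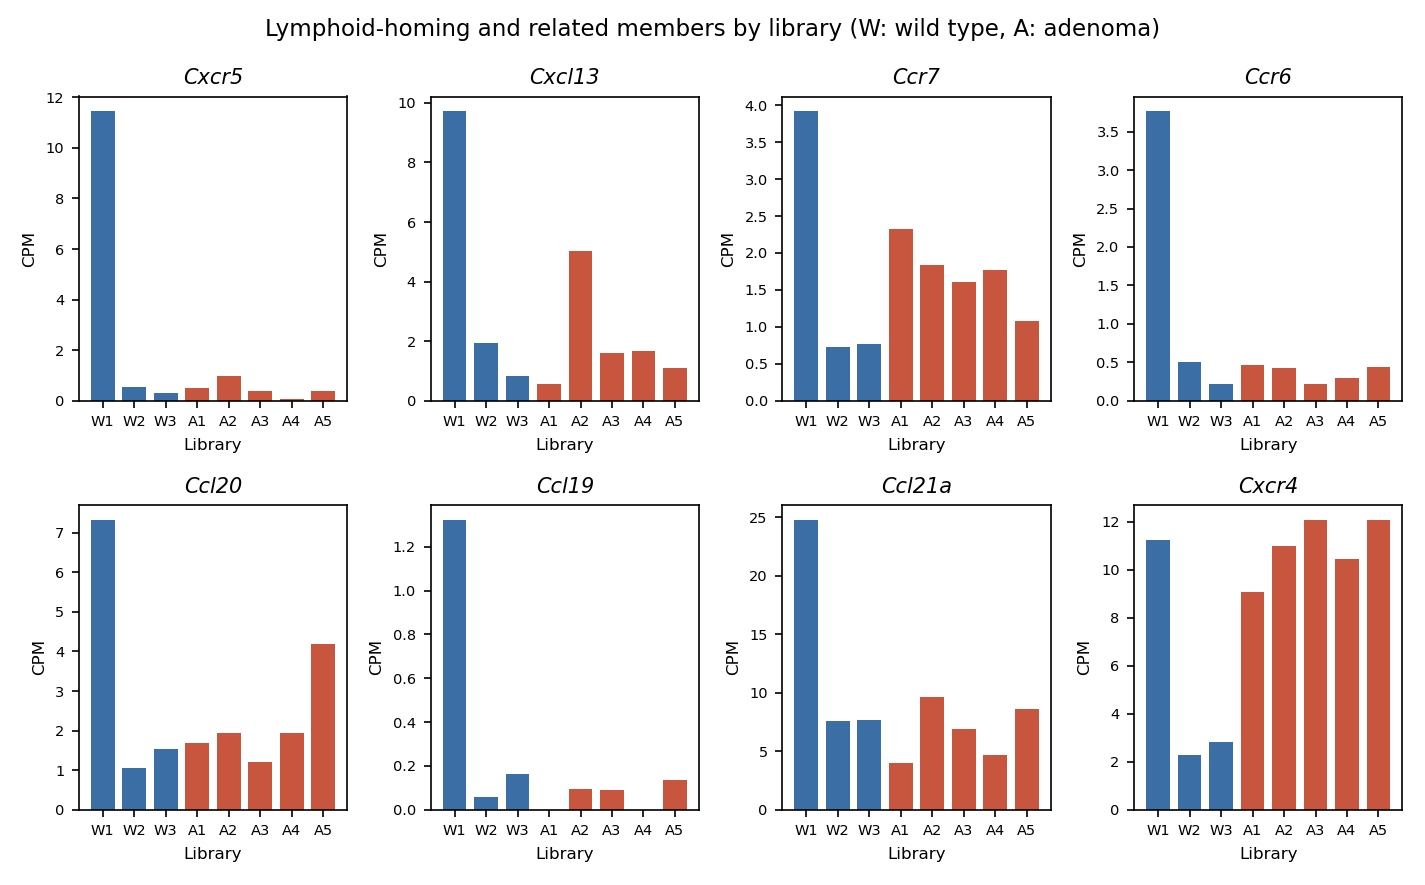
CPM by library on axes that start at 0 for lymphoid-homing and related members, with 1 bar per library. Wild type 1 has the highest bar for Cxcr5, Cxcl13, Ccr7, Ccr6, Ccl20, Ccl19 and Ccl21a, and for Cxcr4 it stands with the adenomas.

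The remaining CC genes showed few calls. Ccl6 and Ccl9, mouse ligands of Ccr1, were not called. Ccl6 was at 132, 103 and 109 CPM in wild type and 36.2, 117, 44.7, 34.3 and 50.9 CPM in adenoma (-1.02 ± 0.40, adjusted p = 0.0574), with adenoma 2 inside the wild-type range and the others below it. Without adenoma 2 Ccl6 was called lower, at -1.47 (adjusted p = 3.93e-05, against 3.93e-05 to 0.229 over all alternatives), and DESeq2, limma-voom, RLE scaling and the 5 CPM filter also called it. Ccl9 was at 19.7, 23.2 and 16.5 CPM in wild type and 21.9, 24.1, 29.4, 21.0 and 26.2 CPM in adenoma (adjusted p = 0.105). The inflammatory ligands Ccl3 and Ccl4 were low and not called, at no more than 1.69 and 1.06 CPM in any library. The receptor Ccr1 was at 14.3, 13.8 and 10.9 CPM in wild type and 15.5, 22.0, 9.29, 11.3 and 15.9 CPM in adenoma, without a call (adjusted p = 0.558).

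Of the eosinophil-attracting ligands, Ccl24 fell from 14.6, 5.68 and 11.9 CPM to 3.31, 0.657, 4.87, 3.29 and 3.35 CPM (-1.79 ± 0.51, adjusted p = 0.0168), with adenoma 2 lowest. It was no longer called without wild type 1 or wild type 3, at an adjusted p of at most 0.0702. Ccl11 was not called, at 20.7, 21.3 and 23.3 CPM in wild type and 26.8, 10.6, 19.3, 24.1 and 29.1 CPM in adenoma (0.013 ± 0.28, adjusted p = 0.970). Their receptor Ccr3 was at 1.02, 3.07 and 1.69 CPM in wild type and 1.58, 0.470, 1.79, 1.30 and 0.745 CPM in adenoma (adjusted p = 0.232), and Ccl26 had 5 counts in wild type and 0 in adenoma and was not tested. Of the 4 eosinophil markers listed, 3 were tested and Siglecf alone was called, lower at -1.22, while Epx was at or near 0 in all libraries.

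The Ccr4 ligands Ccl17 and Ccl22, which attract regulatory and type 2 helper T cells, moved in opposite directions. Ccl17 rose from 0.560, 1.17 and 0.818 CPM to 2.19, 3.24, 1.30, 1.34 and 1.46 CPM (1.16 ± 0.41, adjusted p = 0.0362) and Ccl22 fell from 2.90, 3.29 and 2.35 CPM to 2.24, 1.83, 1.30, 1.43 and 1.83 CPM (-0.72 ± 0.23, adjusted p = 0.0246). Neither call was firm. That of Ccl17 was lost without any 1 of wild type 1, wild type 3 and adenoma 1, and that of Ccl22 without any 1 of wild type 1, wild type 2 and adenoma 4, at adjusted p of up to 0.125 and 0.102. Ccr4 was not called, at 0.713, 0.947 and 0.546 CPM in wild type and 0.326, 0.798, 0.536, 0.519 and 0.812 CPM in adenoma (adjusted p = 0.514), and Ccr8 and its ligand Ccl1 were too low to test.

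Of the 4 atypical receptors, 2 were higher and 1 lower. Ackr3, which scavenges Cxcl12, rose from 4.33, 4.35 and 5.35 CPM to 13.4, 12.6, 9.07, 8.52 and 12.7 CPM (1.27 ± 0.20, adjusted p = 8.34e-04), with no overlap. Ackr2, which scavenges inflammatory CC ligands, rose from 1.53, 1.23 and 1.25 CPM to 1.91, 2.86, 2.59, 3.07 and 2.98 CPM (1.00 ± 0.22, adjusted p = 0.00486), with no overlap. Scaled by pan-epithelial genes, Ackr2 was not called, at 0.66 on the log2 scale (adjusted p = 0.161, against 0.00132 to 0.207 over all alternatives). Ackr4, which scavenges Ccl19, Ccl21 and Ccl25, fell from 8.96, 7.97 and 8.24 CPM to 5.41, 4.37, 6.79, 3.33 and 3.45 CPM (-0.85 ± 0.24, adjusted p = 0.0152), a call lost without wild type 1 (adjusted p = 0.0534, against 0.00189 to 0.270 over all alternatives). Ackr1, which carries chemokines across venules, was not called, at 1.11 to 1.53 and 0.994 to 1.97 CPM.

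Levels of different genes were set side by side only per exon length, as TPM computed from these counts, which divides each gene's count by its exon length and rescales each library to the same sum. In wild type the highest member was Ccl6, at 151 ± 27.4 TPM, followed by Ccl25 at 79.0 ± 14.4, Ccl11 at 47.7 ± 7.24, Cx3cl1 at 47.5 ± 3.51 and Ccl21a at 36.4 ± 27.4. The Ccl21a mean rested on wild type 1. Without it Ccl21a was at 20.7 TPM, below Cxcl16 at 25.2. In adenoma Ccl6 was again highest, at 79.0 ± 53.7 TPM, followed by Cxcl14 at 63.3 ± 35.0, Ccl11 at 49.1 ± 15.5, Cxcl5 at 36.8 ± 26.1 and Cx3cl1 at 32.1 ± 2.57. The SDs of these 5 adenoma means overlap. Ccl6 exceeded Cxcl14 and Cxcl5 in 5 of 5 adenomas. Ccl6 and Cxcl14 were nearly level in adenoma 1, at 46.77 and 46.07 TPM, and in adenoma 4, at 46.04 and 46.03 TPM. Cxcl14 exceeded Ccl11 in 2 of 5, Ccl11 exceeded Cxcl5 in 4 of 5 and Cxcl5 exceeded Cx3cl1 in 2 of 5. In wild type Ccl11, Cx3cl1 and Ccl21a also did not differ beyond their spread. Of the neutrophil-attracting ligands in adenoma, Cxcl5 was highest, against 11.02 ± 7.34 TPM for Cxcl1, 9.79 ± 4.65 for Cxcl2 and 1.12 ± 0.275 for Cxcl3, and it exceeded each of the 3 in 5 of 5 adenomas.

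**Figure D5:**
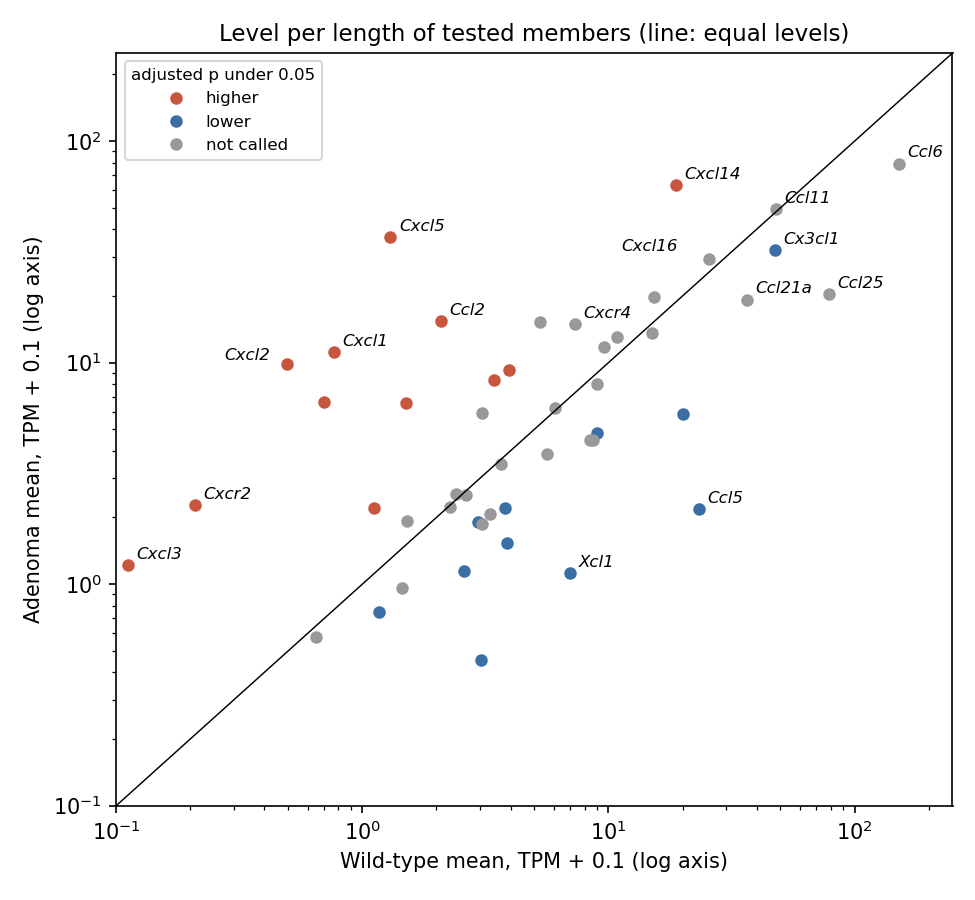
Mean level per exon length of the same 49 tested members in adenoma against wild type, as TPM plus 0.1 on log axes, with a line at equal levels and colour for the call. Cxcl5 moves from 1.20 ± 0.307 TPM in wild type to 36.8 ± 26.1 TPM in adenoma.

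Related genes outside the symbol pattern were read from a list of 29 covering family relatives, signalling, trafficking and cleavage. All 29 were tested, 9 were higher and 8 lower, and their median on the log2 scale was 0.014. The family relatives Ppbp and Pf4, ligands of platelets and megakaryocytes, were higher. Ppbp, which also binds Cxcr2, was at 0.0509, 0 and 0.218 CPM in wild type and 2.703, 4.84, 1.43, 1.77 and 1.59 CPM in adenoma (4.69 ± 0.79, adjusted p = 0.00119), so it passed the filter only through the adenomas and had to be higher. Pf4 was at 2.699, 2.51 and 1.75 CPM in wild type and 6.34, 14.6, 6.17, 5.53 and 6.36 CPM in adenoma (1.75 ± 0.38, adjusted p = 0.00411). Ccrl2, a receptor-like relative, was not called (-0.17 ± 0.21, adjusted p = 0.524). By the smallest adjusted p, the others to name are Elmo1, a partner of Dock proteins in cell migration (-1.44 ± 0.10), Pik3cd, a leukocyte phosphoinositide kinase (-1.28 ± 0.13), Rgs16, which ends G-protein signals (2.67 ± 0.38), and the G-protein subunit Gnai2 (0.68 ± 0.10). Dpp4, a brush border peptidase that also trims chemokines and was picked after its values were seen, fell, with 794 to 901 CPM in wild type and 18.8 to 129 CPM in adenoma (-3.53 ± 0.51, adjusted p = 6.81e-04).

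Of 24 cytokines and factors known to induce chemokines, 17 were tested, 6 were higher and 5 lower. Of the higher ones Il6 passed the filter only through the adenomas and had to be. The higher ones included Il1b, an inflammatory cytokine, at 2.85 to 3.79 CPM in wild type and 13.8 to 35.7 CPM in adenoma (2.83 ± 0.30, adjusted p = 1.30e-04). Il1a, of the same family, was at 1.53 to 2.34 CPM in wild type and 6.29 to 11.4 CPM in adenoma (2.07 ± 0.28, adjusted p = 3.96e-04). The lower ones included the interferon pathway gene Irf7, at 79.8 to 133 CPM in wild type and 23.7 to 32.7 CPM in adenoma (-1.90 ± 0.17, adjusted p = 5.22e-05). Interferon gamma itself (Ifng) was too low to test, at no more than 0.204 CPM.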

How the data were processed

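TruSeq v2 libraries, from a kit that keeps no strand, were read as paired ends, per the labels' protocols. The authors deposited unnormalized read counts by gene. Tools named without role or order are FastQC, TopHat2 and HTSeq, with the build GRCm38, per the submitters' processing notes. For versions, annotation and strand setting, nothing is given in the sources used here.

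Symbols, positions and exon lengths came from GENCODE M21, which gave 37693 of 39179 identifiers a symbol. The members and gene lists were chosen with earlier results of these data known. Within groups, all pairs of libraries differed beyond sampling noise, at a chi-square per degree of freedom of 20.1 to 149. Counts were filtered with filterByExpr, scaled by TMM and tested with edgeR 4.0.16 (R 4.3.3), robust quasi-likelihood, with Benjamini-Hochberg adjustment over 18345 genes at 0.05. CPM values use TMM library sizes, ± gives SD for CPM and TPM (n = 3 and n = 5) and SE for log2 fold changes, and intervals cover counting error only. TPM values are counts per exon-union length, rescaled to one sum per library. The fit was tested on simulated data. Values of 1 member and 1 related gene are not reported here. A protein search listed at the outset was not run. Values by library are given for called members of at least 2 CPM in a group, their partners, and uncalled members of at least 5 CPM, with others named beside them.

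Alternatives were RLE, upper-quartile, total-count and pan-epithelial scaling, no filter, a filter of 5 CPM in 3 libraries, a replicate block, each library left out, DESeq2 1.42.0, limma-voom (limma 3.58.1), wild type 1 and adenoma 5 left out together, 4 genes linked to ribosomal RNA left out, and the Xist pattern as a covariate. Leaving out wild type 1 and adenoma 2 together was added after seeing the data. Library depth limits members under about 1 CPM, whose counts per library are low.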

Additional observations from a re-analysis of the deposited data

Results flagged for a closer look

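Among the 5 adenomas, 1 library stood apart from the others by Dixon's test for 6 of the 50 tested members. Chance alone flags about 1 in 20 groups of normal values, which CPM values need not be. The share over all genes was not computed, so the count is no result about the members. Over all genes adenoma 2 differed from the other adenomas at a chi-square per degree of freedom of 118 to 149. Adenoma pairs without it gave 20.1 to 61.5. Adenoma 2 was the high one for 4 of the 6 flagged members: Ccl6 at 117 CPM (next 50.9 CPM), Ccl8 at 7.32 CPM (next 2.32 CPM), Cxcl13 at 5.02 CPM (next 1.69 CPM) and Cxcl14 at 86.2 CPM (next 40.8 CPM). Adenoma 5 was high for Ccl20, at 4.20 CPM (next 1.95 CPM). Adenoma 1 was low for Cxcl12, at 16.9 CPM (next 26.5 CPM). In adenoma 2 the macrophage markers Mrc1 and C1qa, picked after their values were seen, were also highest, at 78.7 and 88.6 CPM, against at most 35.0 and 70.3 CPM in the other adenomas, and their part in these levels was not tested.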

How the results depend on the processing

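Of the 23 called members, 8 kept their call in every alternative in which they were tested: Ackr3, Ccl5, Cxcl1, Cxcl2, Cxcl3, Cxcl5, Cxcr2 and Xcl1. Cxcl2, Cxcl3 and Cxcr2 passed the main filter only through the adenomas and Xcl1 only through wild type, so the direction of these was set by the filter. Leaving out any single library kept 15 of the 23. With each library left out in turn, 10 to 13 members were higher and 5 to 12 lower. Over those, Ccr7 ran from -0.44 to 1.21 and Cxcr5 from -3.67 to 0.084. The filter of 5 CPM tested 25 members and called 6 higher and 7 lower. Removing wild type 1 with adenoma 5 left 7 lower. The Xist pattern as covariate gave 7 higher and 3 lower. Pan-epithelial scaling moved the all-gene median from 0.04 to -0.34 on the log2 scale and gave 9 and 14. A replicate block gave 11 and 7. In that fit adenomas 4 and 5 have no wild-type library of the same number, so it compares only libraries 1 to 3 of each group. The number of all genes called higher was 5558, and 3074, 1721 and 3345 under the covariate, the pan-epithelial scaling and the block, and that of all genes called lower 5099, and 2298, 5857 and 3204. Libraries were treated as unpaired, and deviations of same-numbered libraries correlated at -0.00163, 0.0842 and 0.0623. Wild type 2 and 3 each correlated best with the adenoma of the same number, while wild type 1 correlated best with adenoma 5, at 0.137. Whether the numbers mark pairs is not stated. Where direction reversed, the cause was not tested: Ccr7 went to 1.21, 1.34 and 1.18 without wild type 1, without it and adenoma 5, and without it and adenoma 2. Cxcr5 went to 0.084 and 0.16 in the first 2 of these. Among uncalled members, Cxcl13 and Ccl20 also changed sign without wild type 1. With no filter the 7 members with few counts were tested too, and 1 was called, Ccl19, lower at -2.81 (adjusted p = 0.0499), which had 26 of its 30 wild-type counts in wild type 1.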

Other observations

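Neighbouring members on a chromosome did not always change alike. On chromosome 5, Cxcl5, Cxcl3, Cxcl15, Cxcl1 and Cxcl2 lie within 146.6 kb (90759360 to 90905938, GRCm38), and 4 were higher, Cxcl15 being too low to test. Cxcl9 and Cxcl10, farther along the same chromosome (92321347 to 92348889), were not called. On chromosome 11, Ccl2, Ccl7, Ccl11, Ccl12, Ccl8 and Ccl1 lie within 270.1 kb, with Ccl2 and Ccl7 higher, while the next group, Ccl5, Ccl9, Ccl6, Ccl3 and Ccl4, held 1 lower gene, Ccl5, and 0 higher. On chromosome 8, Ccl22, Cx3cl1 and Ccl17 lie within 66.4 kb, with Ccl22 and Cx3cl1 lower and Ccl17 higher. On chromosome 9, the receptor genes Ccr9, Cxcr6 and Xcr1, next to each other, were lower, and the nearby Ccr1, Ccr3 and Ccr2 were not called.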
